A study of Mus musculus with 4 samples.

Results

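The cells described here are C1q-negative *Lyz2* myeloid cells found among sorted hepatic CD4+ T cells. They were chosen by their own counts of unique molecular identifiers (UMIs), each of which marks 1 captured RNA molecule. A cell with over 200 genes and under 5% mitochondrial UMIs was a member when it had at least 3 UMIs of *Lyz2*, 0 UMIs of *C1qa*, *C1qb* and *C1qc*, and fewer than 10 of *S100a8* and *S100a9* together. It also had 0 UMIs of *Cd3e*, *Cd3d*, *Cd3g*, *Siglech* and *Fscn1*. The rule found 78 of 10556 kept cells in the library labelled WT (0.739%, 0.585 to 0.921) and 82 of 17462 in the library labelled dKO (0.47%, 0.374 to 0.583). That is 160 of 28018 cells in all, and the levels of the genes in the rule describe how the cells were selected and are no result.

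Liver CD4+ T cells were sorted from male mice that had eaten CD, a choline-deficient diet with 60 kcal% fat and 0.1% methionine, for 8 weeks. Each genotype is 1 library pooled from 2 mice, captured with a 5′ droplet kit together with the T cell receptors. The dKO mice were *Nr4a1* fl/fl *Nr4a2* fl/fl with Cre under *Cd4* control, which acts in T lineage cells. The other mice are called only WT in the labels, and their alleles are not given in the sources used here. The methods state an age for the mice of the pathology experiments but not for the mice of these libraries. For each library the UMIs of all cells in a group were added up and given as CPM, the usual scale for a share of all UMIs. Parentheses give exact 95% intervals, which are Poisson intervals for CPM, conditional binomial ones for ratios and Clopper-Pearson ones for cell shares, all for counting error only. With 1 library per genotype there is no test, and a difference between the libraries is a difference between these 2 pools of mice.

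*Lyz2* encodes lysozyme, an enzyme of monocytes, macrophages and granulocytes that attacks bacterial walls. Monocytes leave the bone marrow through the receptor CCR2 and enter the injured liver, where they can become macrophages, while Kupffer cells are the resident macrophages of the liver sinusoids. C1q starts the classical complement pathway and is made by many mature tissue macrophages, and in fatty liver a lipid-associated macrophage state with TREM2, GPNMB and osteopontin (*Spp1*) is well known.

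The targeted genes were read first. Over all kept cells *Nr4a1* (ENSMUSG00000023034, GRCm38 chromosome 15, 101254269–101274795) had 725 CPM (714–736) and 1659 CPM (1646–1672) in the libraries labelled WT and dKO, in that order, which is also the order of every pair of values that follows. The direction goes against the labels. *Nr4a2* (ENSMUSG00000026826, GRCm38 chromosome 2, 57106830–57124003) had 183 CPM (178–189) and 306 CPM (300.2–311) and goes against them too. In the members *Nr4a1*, a nuclear receptor induced early after stimulation, had 754 CPM (629–897) and 661 CPM (567–766), with a log2 ratio of dKO over WT of −0.19 (−0.53 to 0.15). *Nr4a2* had 371 CPM (285–475) and 269 CPM (210.4–339) in the members and a log2 ratio of −0.47 (−0.97 to 0.05). Both intervals of the ratio contain 0. The counts do not tell the exons of a gene apart, so RNA that lacks a deleted exon was not separated from intact RNA. From these counts such RNA and an exchange of the labels cannot be told apart, and with exchanged labels every direction between the libraries would turn. The paper also measured WT and dKO mice by flow cytometry and PCR, and the labels were not tested against those measures here.

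The members were shallow, and the libraries differed in depth. Their summed UMIs were 169745 and 267778, and a member had a median of 1740.5 UMIs (from 517 to 12551) and 3400.5 UMIs (from 758 to 6260). The deepest cell of the library labelled WT held 7.39% of its members' UMIs. For a gene with 0 UMIs over all members, a floor of 3 UMIs is 17.7 and 11.2 CPM, and the upper end of the exact interval is 21.7 and 13.8 CPM. In the libraries as a whole, 245 barcodes occurred in both, 1 of them in a member of the library labelled WT and none in a member of the library labelled dKO. *Gm42418*, a gene model that overlaps ribosomal RNA sequence, had 20259.8 and 9153 CPM in the members and 13130 and 4416 CPM in T cells, and the part of this difference between the libraries in the results was not tested.

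Near the limits of the rule the cells looked as follows. Members with exactly 3 UMIs of *Lyz2* numbered 9 and 5. Cells with 2 UMIs of *Lyz2*, otherwise like members, numbered 11 and 11. Both of these groups had 0 CPM of *Ly6c2* in both libraries, against 666 and 504 CPM in all members. The median member had 17 and 44 UMIs of *Lyz2*. Cells with 1 or 2 C1q UMIs, just outside the limit, numbered 13 and 17 and had 4821 and 1322 CPM of *Apoe*. The members had 5249 and 1468 CPM of it, and cells with 3 or more C1q UMIs 20152 and 12360 CPM. In other genes the cells with 1 or 2 C1q UMIs were less like members. They had 0 and 1182 CPM of *Plac8*, against 1384 and 2584 CPM in the members. *Ly6c2* was at 0 and 156 CPM in them, against 666 and 504 CPM, and *Gpnmb* at 1422 and 436 CPM, against 536 and 314 CPM. For *S100a8* and *S100a9* the highest member had 1 UMI, in the library labelled WT, and the lowest cell above the limit had 112, in the library labelled dKO.

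Of the genes given as markers of these cells, *Lyz2* was part of the rule, and *Csf1r*, *Ctss* and *Cd74* were not. *Csf1r*, the receptor for the macrophage growth factor CSF1, had 513 CPM (411–632) with the WT label and 541 CPM (457–637) with the dKO label. T cells, defined by a *Cd3* UMI and 0 UMIs of *Lyz2*, *Siglech* and C1q, had 1.2 and 0.889 CPM. *Ctss*, a lysosomal protease that trims the class II invariant chain, had 2504 CPM (2271–2753) and 2599 CPM (2409.6–2799.7). The invariant chain itself, *Cd74*, had 10221 CPM (9746–10714) and 13806 CPM (13365–14259). Of the genes outside the rule, the highest levels per UMI included *Fth1*, the ferritin heavy chain, with 23040.4 and 25409 CPM, *Tmsb4x* with 13679 and 13586 CPM, *Psap*, the precursor of the saposins, with 5231 and 5337 CPM, and *Tyrobp*, the adaptor of many myeloid receptors, with 3711 and 3753 CPM. These levels are per UMI from the 5′ end and not per transcript length, so the order of genes is not an order of molecules per length.

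**Figure D1:**
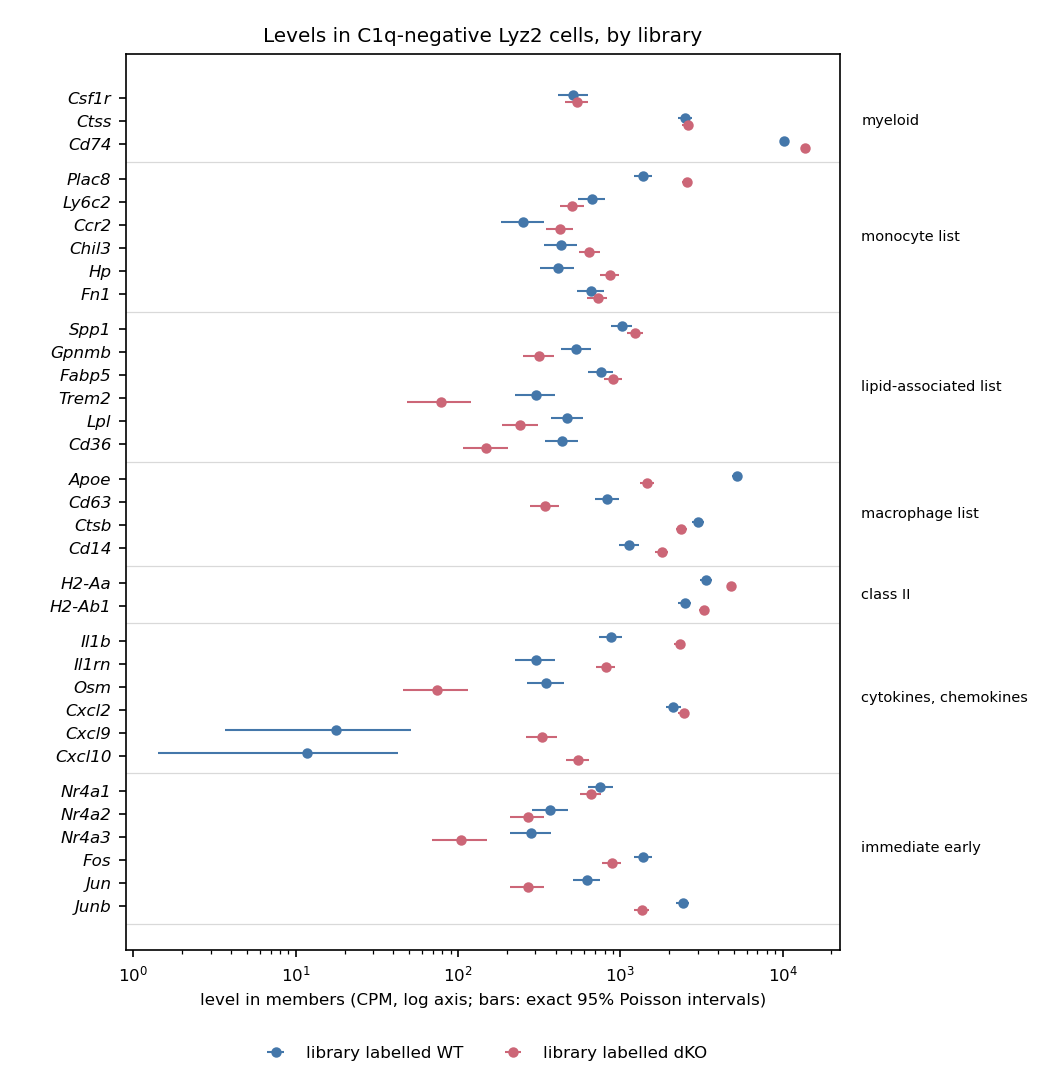
Levels in the members as CPM on a log axis, 1 point per library with its exact 95% Poisson interval, grouped by the list each gene belongs to. *Csf1r* and *Ctss* lie close together in the 2 libraries, *Apoe* lies at 5249 CPM against 1468 CPM, and *Cxcl10* lies at 11.8 CPM against 549 CPM.

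T cell RNA and receptors were scarce in the members, which is in part set by the rule. Members had 0 UMIs of the *Cd3* genes, while the T cells set beside them were defined by a *Cd3* UMI. Before that condition 153 and 145 cells met the limits for *Lyz2*, C1q, *S100a8* and *S100a9*, and 79 and 88 of them had no *Cd3* UMI. A productive TRA or TRB contig was found for 2 of 78 members (2.56%, 0.312 to 8.96) and for 0 of 82, which allows a share of up to 4.40%. In T cells the shares were 45.3% and 36.5%. *Cd4*, the coreceptor used for the sort, had 41.2 CPM (16.6–85.0) and 7.47 CPM (0.905–27.0) in the members and 249.9 and 868 CPM in T cells. After thinning each cell to 1000 UMIs, 1 of 58 and 1 of 77 members had a *Cd4* UMI. The 12 T cell markers summed to 365 CPM (280–468) and 29.9 CPM (12.9–58.9) in the members, against 5254 and 4807 CPM in T cells, and 0 and 7 of the 12 were at 0. Within that list *Skap1*, an adaptor of T cell receptor signalling, had 100.2 and 3.73 CPM, and *Trac* had 29.5 and 0 CPM. Both members with a receptor contig were in the library labelled WT, and leaving them out is among the alternatives of the closing section.

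Marker lists of granulocytes, other lymphocytes and parenchymal cells were low but not all at 0. The 12 neutrophil markers outside the rule summed to 118 CPM (72.0–182) and 116 CPM (78.7–164), against 11.8 and 27.2 CPM in T cells and 30.7 and 59.0 CPM in cells with 3 or more C1q UMIs, and *Ly6g*, *Camp*, *Ngp* and *Ltf* had 0 and 0 UMIs in all. The 8 mast cell or basophil markers summed to 11.8 and 11.2 CPM, the 5 eosinophil markers to 0 and 3.73 CPM and the 9 B or plasma cell markers to 11.8 and 11.2 CPM. The hepatocyte list had 141 and 164 CPM, of which *Trf*, transferrin, made up 124 and 164 CPM. Endothelial and stellate cell markers had 17.7 and 29.9 CPM, and erythroid and platelet markers 11.8 and 3.73 CPM. The innate lymphoid list summed to 135 and 33.6 CPM, and all 13 UMIs of *Il22* came from 1 cell of the library labelled WT.

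The defining genes of dendritic cells and Kupffer cells were few in UMIs, while the broader dendritic cell lists were not low. The dendritic cell growth factor receptor gene *Flt3* had 0 and 3.73 CPM and the lineage factor gene *Zbtb46* 0 and 7.47 CPM. The type 1 markers *Xcr1* and *Clec9a* had 5.89 and 0 CPM and 17.7 and 3.73 CPM, and the type 2 marker *Cd209a* had 0 and 56.0 CPM, from 3 cells. The 10 general dendritic cell markers summed to 4259 CPM (3954–4581) and 3115 CPM (2907–3333), against 3074 and 2468 CPM in cells with 3 or more C1q UMIs, and *Cst3*, cystatin C, which macrophages also express, made up 3829 and 2674 CPM of it. The 12 mature dendritic cell markers summed to 1155 and 1389 CPM, of which *Fabp5* made up 760 and 900 CPM, against 1479 and 1534 CPM. The type 1 and type 2 lists summed to 636 and 560.2 CPM and to 454 and 448 CPM. Of the Kupffer cell genes, *Vsig4*, *Cd5l* and *Folr2* had 0 UMIs in all 160 members, and *Clec4f*, a lectin particular to Kupffer cells, had 0 and 1. Of the 12 Kupffer cell markers 8 and 7 were at 0, and *Hmox1*, which many stressed cells express, made up 289 and 369.7 CPM of the 318 and 429 CPM of the list. *Adgre1*, the gene of the macrophage antigen F4/80, had 41.2 and 67.2 CPM.

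The 12 classical monocyte markers summed to 5455 CPM (5109–5818) and 7204 CPM (6886–7533) in the members, against 1495 and 1763 CPM in C1q-positive cells, which had at least 3 C1q UMIs and otherwise met the rule. *Plac8* (ENSMUSG00000029322, GRCm38 chromosome 5, 100553725–100572245), a small protein abundant in monocytes, had 1384 CPM (1213–1573) with the WT label and 2584 CPM (2395–2784) with the dKO label. *Ly6c2*, which encodes the surface antigen of inflammatory monocytes, had 666 and 504 CPM, and 1 cell of the library labelled WT held 41 of its 113 UMIs. Reads of *Ly6c2* and its near copy *Ly6c1* may be hard to tell apart. *Ccr2* had 253 and 426 CPM, the chitinase-like *Chil3* 430.1 and 646 CPM, haptoglobin, *Hp*, 412 and 859 CPM and fibronectin, *Fn1*, 659.8 and 724 CPM. The 12 nonclassical monocyte markers summed to 2097 and 1778 CPM in the members and 1855 and 1304 CPM in C1q-positive cells, and T cells had 1140.1 and 2606 CPM. That list holds *Nr4a1*, which made up 736 and 1956 CPM in T cells. *Ace* had 118 and 78.4 CPM, *Treml4* 58.9 and 71.0 CPM and *Cx3cr1* 118 and 82.2 CPM.

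The members also held RNA of the lipid-associated macrophage state. The 12 markers summed to 10498 CPM (10016–10997) and 7768 CPM (7437–8109), against 12119 and 9249 CPM in C1q-positive cells and 454 and 589 CPM in T cells. Osteopontin, *Spp1*, had 1019 and 1236 CPM from 13 of 78 and 16 of 82 members, so few cells held much of it. *Gpnmb* (ENSMUSG00000029816, GRCm38 chromosome 6, 49036546–49070929), a transmembrane glycoprotein of lysosomes, had 536 and 314 CPM from 22 of 78 and 18 of 82 members. The fatty acid binding protein gene *Fabp5* had 760 and 900 CPM, galectin 3, *Lgals3*, 3776 and 2816 CPM and lipoprotein lipase, *Lpl*, 471 and 243 CPM.

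Clustering divided the members in 2. Cluster 0 held 40 and 50 cells and cluster 1 held 38 and 32, which is 51.3% (39.7 to 62.8) and 61.0% (49.6 to 71.6) of the members for cluster 0. The genes of these cells made the clusters, so the differences between them are a description. By fold, the genes that led cluster 0 included *Gm9733*, *Ifitm6*, *Sirpb1c*, *Pglyrp1*, *Itgb7*, *Gm15987*, *St3gal4*, *Gm5150* and *Vcan*. Of these, *Vcan* is on the classical and *Pglyrp1* on the nonclassical monocyte list, too few for a name, and the cluster is called by its number. Cluster 1 was led by *Spp1*, *Cd63*, *Gpnmb*, *Gdf15*, *Mmp12*, *Fabp5*, *Mmp19*, *Chst11*, *Dnmt3a* and *Fmn1*. With *Spp1*, *Gpnmb*, *Mmp12* and *Fabp5*, it is called lipid-associated macrophage-like. The median depth was 1413 and 3154.5 UMIs in cluster 0 and 1868 and 3547 UMIs in cluster 1.

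Beyond the leading genes, the lists followed the clusters in both libraries. Classical monocyte markers summed to 8221 and 9967 CPM in cluster 0 and 3282 and 3537 CPM in cluster 1, and 10 of the 12 were higher in cluster 0 in both libraries. *Fn1* was an exception, with 415 and 688 CPM in cluster 0 and 852 and 773 CPM in cluster 1. Lipid-associated markers summed to 3294 and 2685 CPM in cluster 0 and 16159 and 14513 CPM in cluster 1, and all 12 were higher in cluster 1 in both libraries. *Plac8* had 2664 and 4021 CPM in cluster 0 and 379 and 678 CPM in cluster 1. *Gpnmb* had 26.8 and 13.1 CPM in cluster 0 and 936 and 713 CPM in cluster 1. Class II genes also differed, with 12546 and 18447 CPM for the list in cluster 0 and 24375 and 35866 CPM in cluster 1. Interferon-stimulated genes went the other way, 13590 and 13359 CPM against 4976 and 5727 CPM, in which *Ifitm3*, a block to virus entry, made up 4325 and 5075 CPM in cluster 0 and 999 and 1304 CPM in cluster 1. Reads of *Ifitm3* and its near copies may be hard to tell apart.

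**Figure D2:**
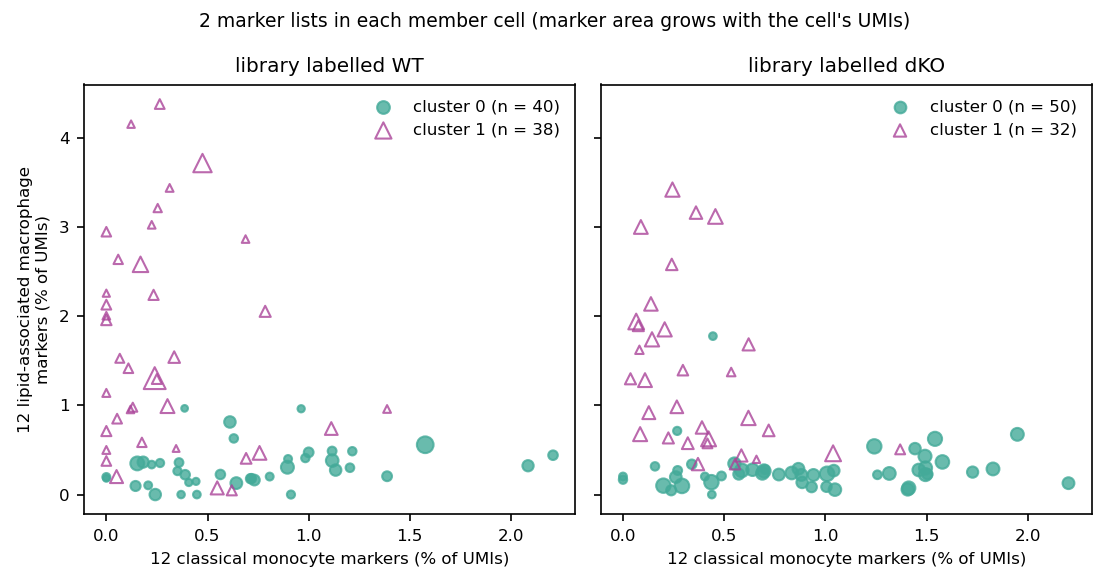
Each point is 1 member, placed by the percent of its UMIs in the 12 classical monocyte markers and in the 12 lipid-associated macrophage markers, with cluster 0 filled, cluster 1 open, and the marker area growing with the UMIs of the cell. Monocyte markers were ahead of lipid-associated markers in 29 of 40 and 43 of 50 cells of cluster 0, and in 6 of 38 and 6 of 32 cells of cluster 1.

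Single genes were then read in cells thinned to 1000 UMIs each, which left out 20 of 78 and 5 of 82 members as too shallow. A *Plac8* UMI was found in 44.8% (31.7–58.5) of 58 and 68.8% (57.3–78.9) of 77 members, and without thinning in 38 of 78 and 61 of 82. In 1000 T cells of each library, thinned likewise, the shares were 4.4% and 7.1%. A *Gpnmb* UMI was found in 20.7% (11.2–33.4) of 58 and 14.3% (7.35–24.1) of 77 members, against 0.30% and 0.40% of T cells. *Plac8* and *Gpnmb* were found together in 0 of 58 and 3 of 77 members, where the product of their shares would give 5.38 and 7.57. *Ccr2* and *Gpnmb* were found together in 0 and 0, where that product would give 2.9 and 3.0. At 2000 UMIs, in 28 and 65 members, *Ccr2* and *Gpnmb* shared 2 and 1 cells where the product would give 2.25 and 4.91, and without thinning 3 and 3 where it would give 7.05 and 8.34. *Plac8* and *Ccr2* shared 12 and 18 cells at 1000 UMIs, where it would give 6.28 and 14.5. The cells share library and depth, and these counts carry no test.

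Against the C1q-positive cells of the same library, which numbered 57 and 100 and had medians of 1528 and 3161 UMIs, the members had more monocyte RNA and less macrophage RNA. C1q set both groups and is no result, and a gene counted when it was past 2-fold the same way in both libraries. Of 2898 genes with at least 50 CPM in either group of each library, 72 were higher in the members (2.48%) and 78 lower (2.69%). Of 10 classical monocyte markers tested, 6 were past 2-fold higher and 0 lower, with median log2 ratios of 1.78 and 1.84, against 0.06 and 0.06 over all genes. Of 9 nonclassical markers tested, 3 were past 2-fold higher and 0 lower. *Plac8* was at 169 and 295 CPM in C1q-positive cells, and its log2 ratio of members over these cells was 3.04 (2.4 to 3.74) and 3.13 (2.82 to 3.46). *Ly6c2* was at 23.0 and 24.8 CPM and had ratios of 4.86 (3.27 to 7.15) and 4.34 (3.32 to 5.58). *Chil3* had ratios of 3.81 (2.39 to 5.72) and 3.31 (2.65 to 4.04) and *Hp* of 1.84 (1.02 to 2.75) and 2.36 (1.92 to 2.81).

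The genes at the upper end of this ranking included others. *S100a4* and *S100a6*, calcium-binding proteins of motile cells, had log2 ratios of 1.6 (1.13 to 2.11) and 1.76 (1.4 to 2.12) and of 1.7 (1.28 to 2.15) and 1.61 (1.38 to 1.85). *Lsp1*, a leukocyte protein that binds actin, had 2.16 (1.23 to 3.23) and 3.24 (2.46 to 4.12), and *Anxa2*, a membrane-binding annexin, 1.44 (0.81 to 2.11) and 1.5 (1.05 to 1.96). Of 10 tested alarmin and S100 genes, 4 were past 2-fold higher and 0 lower, beside 2.48% and 2.69% over all genes of this comparison. *Ifitm3* had 1.37 (1.08 to 1.67) and 1.44 (1.27 to 1.62). *Clec4e*, the gene of Mincle, a receptor for mycobacterial glycolipid and for dead cells, had 1.39 (0.64 to 2.22) and 1.44 (1.08 to 1.8). Each of these intervals lies above 0 in both libraries. Of the 8 tested genes of the list of chemokine receptors and migration, 0 were past 2-fold higher and 0 lower, with medians of 0.18 and 0.24.

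Macrophage and lipid genes were on the other side. Of 12 macrophage markers 0 were past 2-fold higher and 6 lower, with median log2 ratios of −1.33 and −1.87. Over all genes of this comparison 2.48% were past 2-fold higher and 2.69% lower. Apolipoprotein E, *Apoe* (ENSMUSG00000002985, GRCm38 chromosome 7, 19696109–19699188), was at 20152 and 12359.7 CPM in C1q-positive cells and had ratios of −1.94 (−2.05 to −1.83) and −3.07 (−3.23 to −2.92). *Ms4a7* had −2.52 (−3.37 to −1.75) and −2.78 (−3.55 to −2.09), *Adgre1* −2.48 (−3.91 to −1.26) and −1.89 (−2.71 to −1.13) and *Mertk*, a receptor for dying cells, −3.32 (−5.7 to −1.59) and −2.42 (−3.62 to −1.4). Among the genes of lipid handling 4 of 17 were past 2-fold lower and 0 higher. *Pltp*, which transfers phospholipid between lipoproteins, had −1.96 (−2.88 to −1.12) and −2.1 (−3.08 to −1.23), and *Nr1h3*, the sterol receptor LXRα, −1.62 (−2.79 to −0.55) and −1.39 (−2.41 to −0.46). *Trem2* was lower too, with −1.31 (−1.83 to −0.8) and −1.55 (−2.32 to −0.84). Of the 11 tested genes of the lipid-associated list, 2 were past 2-fold lower in both libraries, *Trem2* and *Ctsd*, and 0 higher. *Gpnmb* had ratios of −0.31 (−0.75 to 0.13) and 0.1 (−0.34 to 0.54), and *Spp1* of 1.27 (0.83 to 1.74) and 0.44 (0.21 to 0.67).

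Class II genes were lower in the members, by a factor close to the limit. *H2-Aa*, the α chain of I-A, had 3382 and 4780.1 CPM in the members and 6761 and 10040.5 CPM in C1q-positive cells, with ratios of −1.0 (−1.15 to −0.85) and −1.07 (−1.17 to −0.98). *H2-Eb1* had ratios of −1.22 (−1.39 to −1.05) and −1.47 (−1.58 to −1.36) and *Cd74* of −0.83 (−0.92 to −0.74) and −0.99 (−1.04 to −0.93). Of 6 tested genes of the list 2 were past 2-fold lower in both libraries and 0 higher, beside 2.69% and 2.48% over all genes of this comparison. *Ccl7* and *Ccl8*, chemokines that attract monocytes, had 0 UMIs in all members and 69.0 and 106 CPM and 15.3 and 115 CPM in C1q-positive cells.

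**Figure D3:**
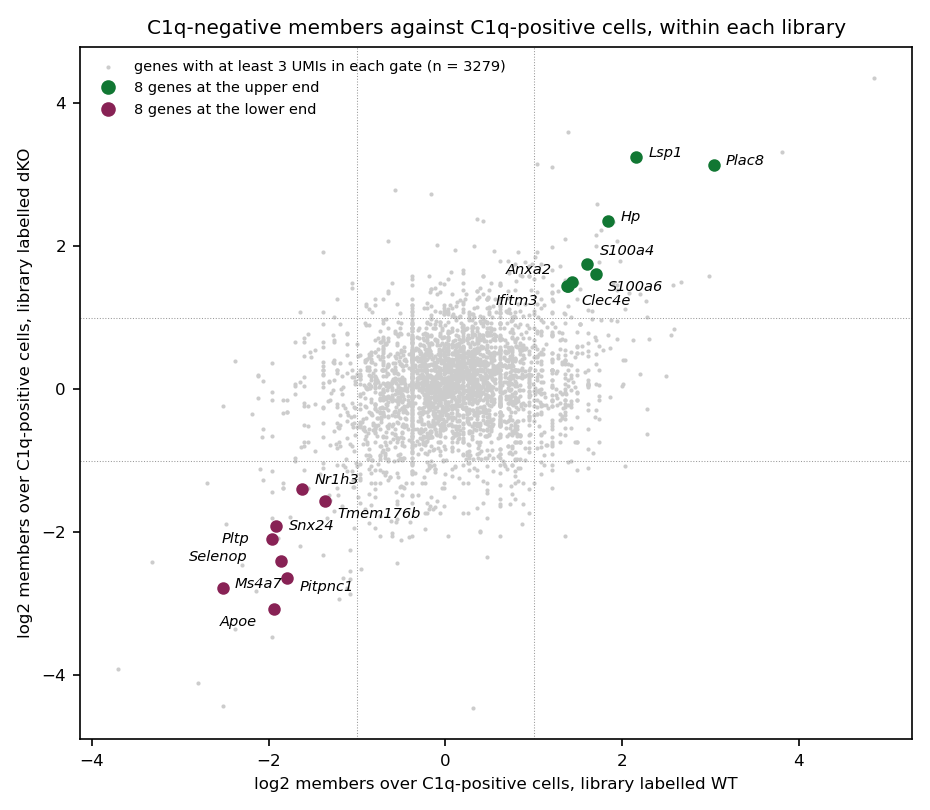
Each grey point is 1 gene with at least 3 UMIs in members and in C1q-positive cells of both libraries (n = 3279), placed by the log2 ratio of members over C1q-positive cells for the WT label on the x axis and the dKO label on the y axis, with dotted lines at 2-fold. The 8 named genes at each end were ranked among genes with at least 10 UMIs in the lower group, so plotted genes with fewer UMIs can lie further out. Those at the upper end, led by *Plac8*, are past 2-fold higher in both libraries, and those at the lower end, led by *Ms4a7*, past 2-fold lower in both.

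Between the libraries, the members of the library labelled dKO had more RNA of *Cxcl9*, *Cxcl10*, *Il1b* and *Il1rn* and less of *Apoe*, *Trem2* and *Jun*. Of 3400 genes with at least 50 CPM in either library, 267 were past 2-fold higher in the library labelled dKO (7.85%) and 289 past 2-fold lower (8.5%), and the median log2 ratio was 0.04. In bulk sums such as these, more cells with an RNA and more RNA per cell cannot be told apart unless the cells are counted. The number of members with a UMI is therefore given for some of the genes.

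Among the tested genes of the lists, the highest ratios were those of *Cxcl10*, *Cxcl9* and *Gbp2*, which are known to respond to interferon γ. *Cxcl10* (ENSMUSG00000034855, GRCm38 chromosome 5, 92346638–92348889), a chemokine that draws CXCR3+ T cells, had 11.8 CPM (1.43–42.6) with the WT label and 549 CPM (464–645) with the dKO label. Its UMIs came from 1 of 78 and 12 of 82 members, and the log2 ratio was 5.54 (3.66 to 8.6). The alternatives of the closing section followed *Cxcl10* with its 2 UMIs of the library labelled WT raised to the floor of 3, a ratio of 4.96. *Cxcl9* (ENSMUSG00000029417, GRCm38 chromosome 5, 92321347–92328079), a ligand of the same receptor, had 17.7 CPM (3.64–51.6) and 329 CPM (264–405), a ratio of 4.22 (2.62 to 6.52), from 1 of 78 and 9 of 82 members. Both were found together in 5 members of the library labelled dKO and in none of the library labelled WT. The guanylate binding protein gene *Gbp2* (ENSMUSG00000028270, GRCm38 chromosome 3, 142620602–142638008) had 23.6 CPM (6.42–60.3) and 314 CPM (250.2–388), a ratio of 3.73 (2.32 to 5.64), from 4 of 78 and 27 of 82 members. One cell held 40 of the 147 *Cxcl10* UMIs, 35 of the 88 *Cxcl9* UMIs were in 1 cell, and 28 of the 84 *Gbp2* UMIs were in 1 cell.

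In the cells that the rule left out, *Gbp2* had 15.3 and 227 CPM in C1q-positive cells, a log2 ratio of 3.89 (1.98 to 6.96), and 42.4 and 61.9 CPM in T cells. *Cxcl9* had 0 UMIs in C1q-positive cells of the library labelled WT and 251 CPM in those of the library labelled dKO. *Cxcl10* had 38.3 and 124 CPM in C1q-positive cells and 61.0 and 88.8 CPM in T cells. The members of both clusters showed the difference. *Cxcl10* was at 26.8 and 707 CPM in cluster 0 and 0 and 339 CPM in cluster 1, and *Gbp2* at 53.6 and 268 CPM and 0 and 374 CPM. Of the 14 tested interferon-stimulated genes, 3 were past 2-fold higher (*Gbp2*, *Isg15* and *Zbp1*) and 1 lower (*Oasl2*), with a median log2 ratio of 0.11. Over all tested genes 7.85% were past 2-fold higher and 8.5% lower. *Isg15*, a ubiquitin-like protein, had 1.24 (0.62 to 1.89), whereas *Irf7*, a factor of the type I response, had −0.39 (−1.21 to 0.43) and *Ifi27l2a* −0.61 (−0.82 to −0.4).

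The 250 bases before the start of these 3 genes are printed because they had the highest ratios among the listed genes. They come from RefSeq promoters of GRCm38.p6, whose start can differ from the gene span given above, 5′ to 3′ on the strand of the gene, and capitals mark a match to the interferon-stimulated response element, searched on both strands as GAAA, 2 bases of any kind and GAAA again. That motif was found in 2.97% of 32817 such windows, and the γ activated site, searched as TTCNNNGAA on both strands, in 7.01%.
*Cxcl9*, chr5:92328080-92328329, minus strand: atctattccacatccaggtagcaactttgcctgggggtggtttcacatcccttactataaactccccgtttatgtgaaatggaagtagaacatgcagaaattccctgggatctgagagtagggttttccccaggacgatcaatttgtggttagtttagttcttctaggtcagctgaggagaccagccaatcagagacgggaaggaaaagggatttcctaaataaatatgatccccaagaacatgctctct
*Cxcl10*, chr5:92348890-92349139, minus strand: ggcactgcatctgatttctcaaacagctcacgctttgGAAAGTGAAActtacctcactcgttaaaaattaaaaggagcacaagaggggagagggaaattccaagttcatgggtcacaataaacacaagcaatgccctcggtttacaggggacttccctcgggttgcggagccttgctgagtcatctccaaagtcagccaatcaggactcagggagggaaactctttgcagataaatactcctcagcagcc
*Gbp2*, chr3:142620413-142620662, plus strand: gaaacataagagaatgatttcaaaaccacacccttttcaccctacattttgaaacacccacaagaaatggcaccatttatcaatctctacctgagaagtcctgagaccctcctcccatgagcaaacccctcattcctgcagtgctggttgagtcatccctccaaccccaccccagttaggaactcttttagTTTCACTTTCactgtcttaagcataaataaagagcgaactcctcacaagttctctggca
*Cxcl10* has 1 response element match, GAAAGTGAAA, from base 213 to base 204 before the start, and *Gbp2* has 1, TTTCACTTTC, from base 59 to base 50. The *Cxcl9* window holds neither pattern, and none of the 3 windows holds TTCNNNGAA. The matches describe letters and not binding.

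*Il1b* and *Il1rn* were higher too. *Il1b*, the cytokine of the inflammasome, had 872 CPM (737–1024) with the WT label and 2319 CPM (2140.2–2509) with the dKO label, a log2 ratio of 1.41 (1.15 to 1.68), and was found in 37 of 78 and 57 of 82 members. Thinned to 1000 UMIs, 43.1% (30.2–56.8) of 58 and 59.7% (47.9–70.8) of 77 members had an *Il1b* UMI. The ratio in C1q-positive cells was 0.61 (0.36 to 0.86). *Il1rn*, which encodes the receptor antagonist, had 300.5 and 814 CPM and a ratio of 1.44 (0.99 to 1.91). Its UMIs came from 19 of 78 and 35 of 82 members, and 1 cell of the library labelled dKO held 47 of its 218 UMIs there. *Nlrp3*, the sensor of the inflammasome, had 29.5 and 146 CPM and 2.31 (0.96 to 4.01), and in C1q-positive cells 0.02 (−0.72 to 0.8). *Cd274*, the ligand of PD-1, had 106 and 280.1 CPM and 1.4 (0.64 to 2.23), and in C1q-positive cells 1.63 (0.72 to 2.69). Within the clusters the ratio of *Il1b* was 0.72 (0.38 to 1.07) in cluster 0 and 2.2 (1.78 to 2.64) in cluster 1.

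Other genes at the upper end include several that inflammatory stimuli are known to induce. *Ptgs2*, the inducible cyclooxygenase, had 58.9 and 194 CPM and a log2 ratio of 1.72 (0.73 to 2.86), from 8 of 78 and 16 of 82 members. *Acod1*, which makes itaconate, had 82.5 and 261 CPM and 1.66 (0.82 to 2.61), from 6 of 78 and 26 of 82 members. *Slpi*, a secreted protease inhibitor, had 106 and 347 CPM and 1.71 (0.97 to 2.53), while its ratio in C1q-positive cells was −0.19 (−1.68 to 1.49). *Marcksl1*, an actin-linked membrane protein, had 112 and 444 CPM and the highest ratio of the ranked genes, 1.99 (1.28 to 2.77). *Braf* and *Ms4a6d* were also among the 8, with 1.53 (0.57 to 2.62) and 1.5 (0.68 to 2.42). *Nfkbia*, the inhibitor induced by NF-κB, had 507 and 1076 CPM and 1.09 (0.73 to 1.45). Its ratio lay between 0.41 and 1.35 in the 11 alternatives of the closing section and was past 2-fold in 9 of them.

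Other cytokine genes were lower or close in level. *Osm*, oncostatin M, a cytokine of the interleukin 6 family, had 348 CPM (265–448) with the WT label and 74.7 CPM (45.6–115) with the dKO label, a log2 ratio of −2.22 (−3.03 to −1.47). In C1q-positive cells it had 314 and 71.4 CPM and −2.14 (−2.94 to −1.37). *Tnf* had 0.49 (−0.71 to 1.81), and the neutrophil chemokine *Cxcl2* 0.21 (0.03 to 0.4). The chemokine genes *Ccl3*, *Ccl4*, *Ccl6* and *Ccl9* had log2 ratios of −0.17, 0.13, 0.36 and −0.13, and near copies among these genes can share reads. Of 10 tested chemokines 3 were past 2-fold higher and 1 lower, and of 5 tested cytokines 2 and 1, beside 7.85% and 8.5% over all tested genes. The third of these chemokines, *Ccl5*, had 82.5 and 187 CPM in the members and 1670.3 and 6713 CPM in T cells, which make much of it, and the part of T cell RNA in its value was not tested.

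**Figure D4:**
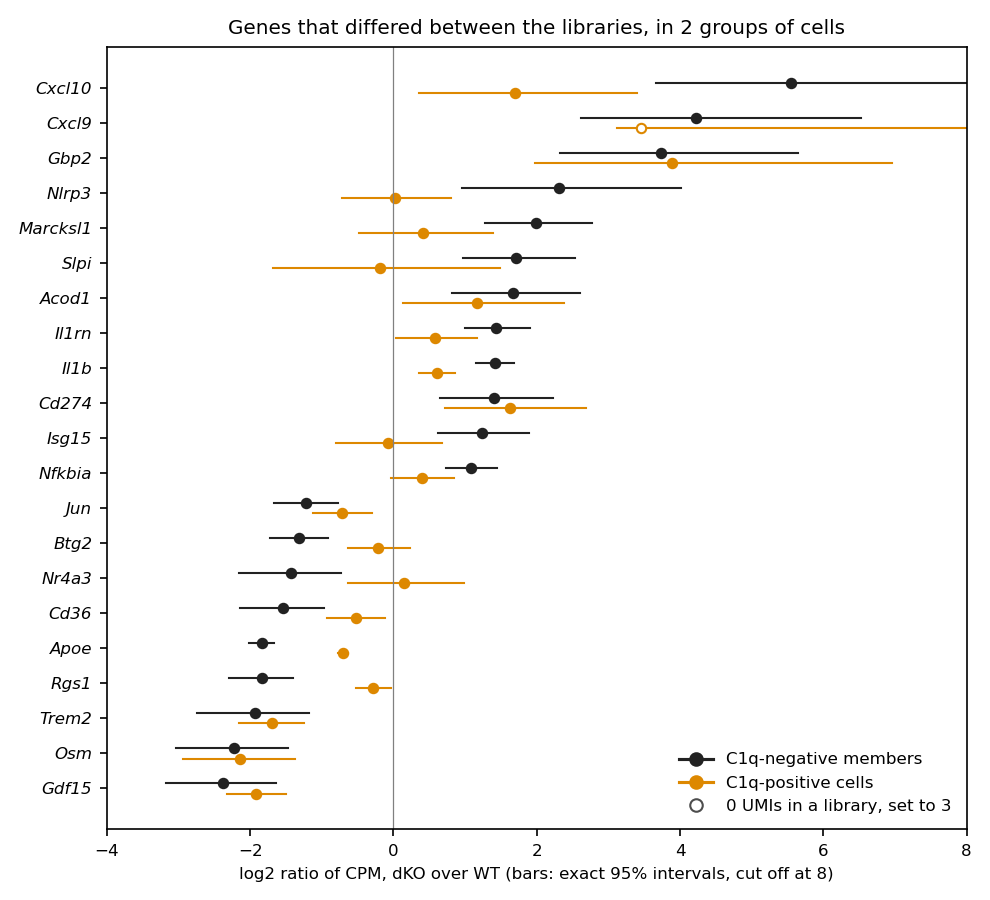
Log2 ratios of CPM, dKO over WT, in the C1q-negative members (black) and in the C1q-positive cells (orange) of the same 2 libraries, with exact 95% intervals that end at 8 where they run further, and an open point where a library had 0 UMIs, which were set to 3. *Gbp2*, *Cd274*, *Osm*, *Trem2* and *Gdf15* lie on the same side of 0 with intervals clear of it in both groups of cells, while for *Nlrp3*, *Slpi*, *Isg15*, *Btg2* and *Nr4a3* the interval contains 0 in C1q-positive cells and not in the members.

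Some lipid-associated and lipid handling genes were past 2-fold lower in the library labelled dKO, and most were not. *Apoe* had 5249 CPM (4910–5605) with the WT label and 1468 CPM (1326–1620.2) with the dKO label, a log2 ratio of −1.84 (−2.01 to −1.67), and was found in 57 of 78 and 55 of 82 members. One cell of the library labelled WT held 219 of its 891 UMIs there. In C1q-positive cells the ratio was −0.71 (−0.78 to −0.63). *Trem2* (ENSMUSG00000023992, GRCm38 chromosome 17, 48346401–48354147), a lipid receptor, had 300.5 CPM (224–395) with the WT label and 78.4 CPM (48.5–119.9) with the dKO label, a ratio of −1.94 (−2.75 to −1.18), with −1.69 (−2.15 to −1.24) in C1q-positive cells. It was found in 27 of 78 and 15 of 82 members. Thinned to 1000 UMIs, 17.2% (8.59–29.4) of 58 and 9.09% (3.73–17.8) of 77 members had a *Trem2* UMI, intervals that overlap. *Cd36*, a scavenger receptor for fatty acids, had 436 and 149 CPM and −1.55 (−2.14 to −0.97). In the 11 alternatives of the closing section its ratio lay between −1.89 and −0.73, past 2-fold in 10 of them. *Cd63* had 831 and 344 CPM and −1.27 (−1.67 to −0.88), and *Lpl* −0.96 (−1.45 to −0.47). *Fabp4* is among the 4 list genes past 2-fold lower, with 10 and 1 UMIs. *Mmp12*, macrophage elastase, had 324 and 22.4 CPM, but 38 of its 55 UMIs in the library labelled WT came from 1 cell. *Spp1* and *Fabp5* did not follow, with 0.28 (0.01 to 0.55) and 0.24 (−0.07 to 0.56).

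The same genes were read within each cluster. *Apoe* had 3762 and 858 CPM in cluster 0 and 6417 and 2277 CPM in cluster 1, and *Trem2* 121 and 58.9 CPM and 442 and 104 CPM. *Cd36* had 147 and 111 CPM in cluster 0, a log2 ratio of −0.4 (−1.58 to 0.84), and 663 and 199.9 CPM in cluster 1, a ratio of −1.73 (−2.49 to −1.02). Of the 18 tested lipid handling genes 1 was past 2-fold higher and 5 lower, with a median log2 ratio of −0.47, and of the 12 lipid-associated markers 0 and 4, with −0.68. Over all tested genes 8.5% were past 2-fold lower. The members of the library labelled WT were shallower, and among members with at least 1500 UMIs, 45 and 68 cells, the log2 ratio of *Apoe* was −1.78 and that of *Trem2* −1.87.

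The genes at the lower end of the ranking were of several kinds. *Gdf15*, a stress-induced hormone, had 389 and 74.7 CPM and a log2 ratio of −2.38 (−3.18 to −1.64), and in C1q-positive cells −1.91 (−2.33 to −1.5). Its UMIs came from 16 of 78 and 7 of 82 members, and 1 cell of the library labelled dKO held 11 of its 20 UMIs there. *Rgs1*, a brake on G protein signals, had 842 and 235 CPM and −1.84 (−2.29 to −1.4). It was found in 31 of 78 and 29 of 82 members, and 1 cell of the library labelled WT held 36 of its 143 UMIs there. *Rhob*, a small GTPase, had −2.0 (−2.9 to −1.16), *Mmp19*, a metalloproteinase, −1.84 (−3.01 to −0.77) and the gene model *Gm21188* −2.2 (−3.28 to −1.22).

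The list of Nr4a and immediate early genes summed to 14168 CPM (13608–14746) and 9971 CPM (9596–10356) in the members, and to 14204 and 10146 CPM in C1q-positive cells and 14223 and 14503 CPM in T cells. Of the 21 tested genes of this list, 2 were past 2-fold higher and 5 past 2-fold lower, with a median log2 ratio of −0.48. Over all tested genes the shares were 7.85% and 8.5%. *Jun*, a subunit of AP-1, had 624 CPM (511–755) with the WT label and 269 CPM (210.4–339) with the dKO label, a log2 ratio of −1.22 (−1.67 to −0.77). *Fos* had 1384 and 885 CPM and −0.65 (−0.91 to −0.38), *Atf3* 1037 and 459 CPM and −1.17 (−1.52 to −0.83), and the growth inhibitor *Btg2* 801 and 321 CPM and −1.32 (−1.73 to −0.92). *Nr4a3*, the member of the family that the dKO mice keep, had 283 and 105 CPM and −1.44 (−2.16 to −0.73), with 134 and 118 CPM in cluster 0 and 399.8 and 86.9 CPM in cluster 1. The ratio of *Nr4a3* lay between −1.48 and −0.71 in the 11 alternatives of the closing section, past 2-fold in 10 of them. The heat shock genes *Hspa1a* and *Hspa1b*, near copies of each other, had 259 and 131 CPM and 265 and 85.9 CPM, and in T cells 356 and 176 CPM and 391 and 258 CPM.

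Of the 12 tested genes of the classical monocyte list, 1 was past 2-fold higher and 1 past 2-fold lower, with a median log2 ratio of 0.18. These shares are near the 7.85% and 8.5% over all tested genes. *Hp* was the gene past 2-fold higher, with 1.06 (0.67 to 1.47). *Plac8* had a log2 ratio of 0.9 (0.68 to 1.12), *Ccr2* 0.75 (0.23 to 1.29) and *Ly6c2* −0.4 (−0.77 to −0.03). No class II gene passed 2-fold, and the median over the 6 tested was 0.47. *H2-Aa* had 0.5 (0.36 to 0.64) in the members and 0.57 (0.46 to 0.68) in C1q-positive cells. *Csf1r* and *Ctss* had 0.08 (−0.31 to 0.48) and 0.05 (−0.12 to 0.23).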

How the data were processed

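Gene expression was measured in sorted hepatic CD4+ T cells of 2 libraries, 1 per genotype. The authors made the deposited counts, UMIs per gene and cell, with Cell Ranger 7.0.1 on mm10, and deposited T cell receptor contigs beside them. From the raw counts, cells were kept with over 200 genes and under 5% mitochondrial UMIs, gated on gene counts, and summed per library to CPM. Exact intervals cover counting error only, and their code was tested on simulated data. Genes counted as past 2-fold had at least 50 CPM in a library. Members were clustered with scanpy 1.11.5 on values scaled within each library, with 20 components and resolution 0.5. Scrublet's automatic threshold marked 0 cells, so the cells with the highest scores, 0.8 percent per 1000 cells (891 and 2439 cells, 5 members in each library), were left out in an alternative and kept otherwise. Named genes were those of fixed lists, the 15 with the highest CPM, the 8 at each end of each comparison with at least 10 UMIs in the lower library or group, and the 10 leading genes of each cluster. Receptor, mitochondrial, ribosomal protein and gate genes were left out of the ranked parts. Some genes that this rule names are not reported here. The members and lists were chosen with earlier results of these data known. Gene spans are from GENCODE M21, matched by gene ID. Python 3.11.15, numpy 2.4.6, pandas 2.3.3, scipy 1.17.1, scikit-learn 1.9.0, matplotlib 3.10.9 and R 4.3.3 with edgeR 4.0.16, the latter for TMM factors in an alternative, were used.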

Additional observations from a re-analysis of the deposited data

How the results depend on the processing

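The depth of 78 and 82 members limits what a gene can show, and with 1 library per genotype no spread between mice is known. No paired analysis was possible because each genotype has 1 library. Of 43 genes followed, 29 were past 2-fold between the libraries, and all 29 kept their direction in the 11 alternatives that were run on them, 24 of them past 2-fold in each. The limit of 3 for *S100a8* and *S100a9*, 1 of the 11, left the same members and so could change nothing, and TMM factors lowered every log2 ratio by 0.04. The exceptions to 2-fold were *Cd36*, *Isg15*, *Nr4a3*, *Nfkbia* and *Clec4e*. Without predicted doublets the share of members with a receptor contig in the library labelled WT was 0. The count of genes past 2-fold higher in the library labelled dKO, 267, was 464 when CPM was taken per cell and averaged over cells, which moved the median log2 ratio of all genes to 0.11. With at least 20 CPM, 435 genes were higher and 843 lower, and with at least 200 CPM, 30 and 39. The numbers of genes tested differ between these limits and are not given here, so the counts are not shares. The floor of 3 UMIs is 17.7 CPM with the WT label and 11.2 CPM with the dKO label, close to the limit of 20 CPM. The part of this floor in the larger count of lower genes was not tested. Clustering at resolution 0.8 gave 4 clusters in place of 2, and 94.4% of members stayed in the matching cluster. That share was 87.5% when both libraries were scaled together and 89.4% with 10 components, which gave 3 clusters. Leaving out the deepest member of each library, keeping members with at least 1500 UMIs and reading within clusters were chosen after seeing the data.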

Other observations

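Receptor genes of the members are given here as values, with the WT label first and log2 ratios as dKO over WT. For Fc and complement receptors, 2 of 12 tested genes were past 2-fold higher and 0 lower, beside 7.85% and 8.5% over all tested genes. *Fcgr4*, an activating receptor for IgG, had 23.6 and 89.6 CPM and a log2 ratio of 1.93 (0.39 to 3.91), and *Cfb*, complement factor B, had 35.3 and 131 CPM and 1.89 (0.62 to 3.43). The adaptor *Fcer1g* had 2839.6 and 3742 CPM and 0.4 (0.24 to 0.56). Among pattern recognition receptors, 3 of 8 tested genes were past 2-fold higher and 1 lower. *Clec4e* had 383 and 807 CPM and 1.07 (0.67 to 1.5), and *Cd14*, the coreceptor for bacterial lipopolysaccharide, 1137 and 1804 CPM and 0.67 (0.42 to 0.91). For costimulation and checkpoint ligands, 3 of 6 tested genes were past 2-fold higher and 0 lower, but the intervals of *Cd80*, 1.12 (−0.14 to 2.58), and *Cd40*, 1.08 (−0.29 to 2.68), contain 0.

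Among growth factor receptors and lineage factors, 0 of 18 tested genes were past 2-fold higher and 0 lower. *Spi1*, the myeloid factor PU.1, had 0.17 (−0.25 to 0.6), and *Cebpb*, a factor of monocyte differentiation, 0.15 (−0.01 to 0.31). Of the glycolysis genes, 0 of 11 tested genes were past 2-fold higher and 1 lower, and *Ldha*, lactate dehydrogenase, had 0.33 (−0.05 to 0.72). Among cathepsins and lysosomal proteases, 0 of 10 tested genes were past 2-fold higher and 0 lower. Over all genes tested the shares past 2-fold were 7.85% higher and 8.5% lower.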
